A study of Mus musculus with 6 samples.

Results

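Myelin is the layered membrane that oligodendrocytes wrap around axons, and its structural proteins are made in large amounts by these cells and by few others in the adult brain. Mbp codes for myelin basic protein, which draws the cytoplasmic faces of the membrane together, and its mRNA is carried out along the cell processes and translated close to the growing sheath. In the hippocampus oligodendrocytes lie mainly in the fibre-rich layers and the hilus rather than among the packed cell bodies of the granule and pyramidal layers.

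The genes described here are a fixed set of 6 myelin genes of oligodendrocytes, Mbp, Mobp, Cnp, Mag, Mog and Mal, chosen by name with earlier results of these data known. The table of the dentate gyrus (DG), labelled as its granular layer, and of the CA1 field lists 7507 genes, and 5 of the 6 were read in it. The paper holds it possible that a small part of the hilus lay within the DG area. Mag, which codes for an adhesion protein at the inner, axon-facing side of the sheath, was not analysed here.

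The libraries were made from sections of the adult mouse brain with Barcoding by Activated Linkage of Indexes (BALI), in which light selects a region of the tissue and a DNA barcode is ligated to the cDNA inside it. From each of 3 sections of fresh-frozen tissue, 10 µm thick, both regions were sequenced, so that 6 libraries were compared in 3 pairs. The mice had an age of 12 weeks in the sample labels and of 8 to 12 months in the growth protocol, no genotype or treatment was named, and strain and the number of animals behind the sections were not given in the sources used here. The p-values below therefore measure the spread between sections, which may be technical.

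A unique molecular identifier (UMI) is a random tag that lets copies of the same cDNA molecule be counted once, and the share of a gene is its UMIs as a percentage of all UMIs of the library. The DG libraries of sections 1 to 3 held 17999, 4572 and 6298 UMIs and the CA1 libraries 9357, 2844 and 4865, so the DG library was the deeper of each pair by 1.29 to 1.92 times. A count of 0 allows a share of up to 0.0167% in the deepest library and up to 0.105% in the shallowest, taking 3 UMIs as the limit. The intervals of shares and of section or pooled ratios, and the limits, cover counting error only, whereas edgeR's interval also takes in the spread between libraries. In tissue regions of this kind, fewer oligodendrocytes and less myelin mRNA per oligodendrocyte cannot be told apart.

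The region labels were compared with neuronal markers. The 7 of 12 DG granule cell markers that were read held 33 UMIs in the DG and 6 in CA1, but the shares of the regions overlapped, from 0.0635 to 0.139% in the DG and from 0 to 0.105% in CA1. Ahcyl2 in the DG of section 1 gave 12 of the 33. Some genes of the list were read only in the DG, with 6 or 7 UMIs each, and others only in CA1, with 2 UMIs each. In section 2 the share of the list was lower in the DG, at 0.0875% against 0.105%. The 9 of 12 CA1 pyramidal markers that were read took 0.0656 to 0.122% of the DG libraries and 0.141 to 0.192% of the CA1 libraries, without overlap, but the leading genes of the list did not run this way singly. Lmo4, with 34 of the 61 UMIs of the list, and Pou3f1, with 10, each had the higher share on the DG side in 2 of 3 sections, and their shares overlapped between regions. Of the oligodendrocyte markers, Mbp held 144 UMIs, but it is itself 1 of the set. The further defining markers Ermn and Cldn11 held 3 and 1 UMIs, all in the DG of sections 1 and 3, and Opalin was not analysed here. The 20 other myelin genes read, with Ermn and Cldn11 among them, held 76 UMIs in the DG and 60 in CA1. By library they ran from 5 UMIs in CA1 of section 2 to 54 in the DG of section 1. Beyond these counts, the presence of oligodendrocytes in each region was not tested apart from the set.

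The 5 myelin genes together gave 168 UMIs, 104 in the DG and 64 in CA1. In the DG they took 0.433% of the UMIs of section 1, with an exact (Clopper-Pearson) 95% interval of 0.343 to 0.541%, 0.131% of section 2 (0.0482 to 0.285%) and 0.318% of section 3 (0.194 to 0.490%). In CA1 they took 0.438% of section 1 (0.315 to 0.594%), 0.246% of section 2 (0.0990 to 0.506%) and 0.329% of section 3 (0.188 to 0.534%). The order of the sections was the same in both regions, with section 1 highest and section 2 lowest, and the ranges of the regions overlapped. The library totals had this same order in both regions, so section and depth cannot be told apart here.

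The mean summed share was 0.294% ± 0.152 (SD, n = 3) in the DG and 0.338% ± 0.0963 (SD, n = 3) in CA1. Within sections the sum was lower on the DG side in 3 of 3 cases, but by very unequal amounts. The log2 ratio of DG over CA1 was -0.016 in section 1, with a 95% interval of -0.58 to 0.57, then -0.91 in section 2 (-2.76 to 0.89) and -0.051 in section 3 (-1.07 to 0.99). Each interval holds 0, and the mean ratio of -0.32 ± 0.50 (SD, n = 3) was smaller than the spread between sections. The mean rests on section 2, where the DG library held 6 UMIs of these genes, and without this section it was -0.033. Pooled over sections, the ratio was -0.058, with an interval of -0.52 to 0.41. Within a region, the highest library was 3.30 times the lowest in the DG and 1.78 times the lowest in CA1. Within a section, the DG share was 0.989, 0.533 and 0.966 times the CA1 share in sections 1 to 3.

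**Figure D1:**
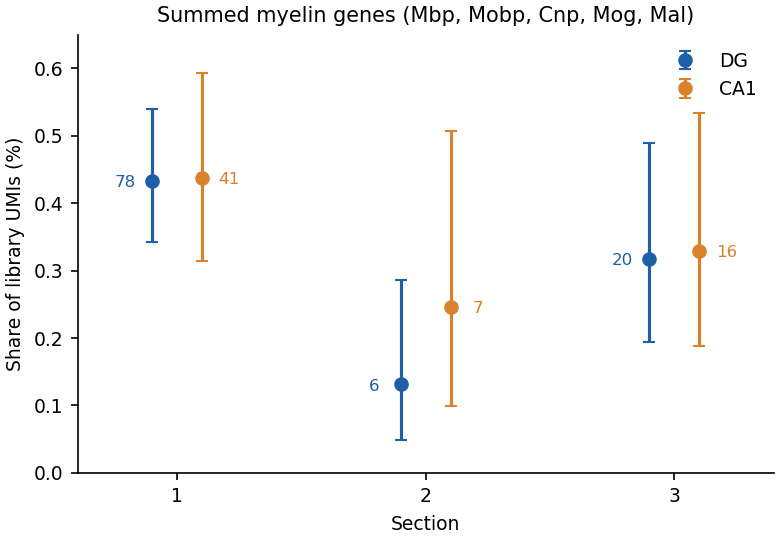
Summed share of Mbp, Mobp, Cnp, Mog and Mal in each library, as a percentage of library UMIs, by section on the x axis and with the DG in blue and CA1 in orange. Bars are exact 95% intervals for counting error and the numbers are UMIs, from 6 in the DG of section 2 to 78 in the DG of section 1; within each section the intervals of the regions overlap.

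Mbp made up most of this sum. It gave 144 of the 168 UMIs, or 85.7% with an exact 95% interval of 79.5 to 90.6%, and between 66.7 and 100% of the myelin UMIs of each library. The other 4 genes together held 24 UMIs, 17 of 104 in the DG (16.3%) and 7 of 64 in CA1 (10.9%). A description of the sum is therefore close to a description of Mbp.

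Mbp lies on the plus strand of chromosome 18 from 82475091 to 82585637 in GRCm38.p6, and its annotated exons span 6974 bases. A predicted antisense RNA gene, Gm52337, has exons over 57.8% of these bases, and genes were counted with default options, which ignore strand. Whether the annotation used for counting held this gene is not given in the sources used here. Without it, antisense reads would count as Mbp, and with it, reads on both genes would be left out, so the Mbp counts carry this uncertainty. Mbp held 66, 4 and 17 UMIs in the DG of sections 1 to 3, beside 38, 7 and 12 in CA1, and 15 genes of the table held more over all libraries. As shares, the DG libraries had 0.367, 0.0875 and 0.270% and the CA1 libraries 0.406, 0.246 and 0.247%. The DG library of section 2 was the lowest of the 6, and the regions overlapped. By share, DG was below CA1 in sections 1 and 2 and above it in section 3.

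Mbp did not pass the test between regions. The mean share was 0.241% ± 0.142 (SD, n = 3) in the DG and 0.300% ± 0.0922 (SD, n = 3) in CA1, with p = 0.6 by a two-sided exact permutation test over the 6 libraries, where 0.1 is the smallest p that 3 against 3 allows. In edgeR's quasi-likelihood fit across the 43 genes that passed the filter on low counts, the log2 fold change of DG over CA1 was -0.086 ± 0.34 (SE), with a Benjamini-Hochberg adjusted p of 0.910. The 95% interval of this change, -0.77 to 0.59 on the log2 scale, runs from 0.588 to 1.51 times the CA1 level. The fit did not tell values within this interval apart, so a difference of that size is not excluded. The direction was set by single libraries, since the log2 fold change was 0.13 without the DG library of section 2 and 0.41 without the CA1 library of section 1, and -0.73 without the DG library of section 1.

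Among the 43 genes tested by edgeR, 0 were called at an adjusted p under 0.05 (0%), and 3 had an unadjusted p under 0.05 (6.98%). Mbp was the only one of the 5 myelin genes that passed the filter, so 4 of the 5 have no value in this fit. In an edgeR fit of all 7507 genes without the filter, 0 genes were called (0%), 127 had an unadjusted p under 0.05 (1.69%), and the adjusted p was 0.667 for Mobp, 0.930 for Cnp, 0.930 for Mog and 0.663 for Mal. DESeq2 on the same 43 genes called 0 and gave 0 with an unadjusted p under 0.05.

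Mobp codes for a small basic protein of compact myelin and lies on the plus strand of chromosome 9, 120149742 to 120181488. It gave 12 UMIs, with 7, 0 and 2 in the DG of sections 1 to 3 and 2, 0 and 1 in CA1. Both libraries of section 2 were at 0, and in sections 1 and 3 the DG library held more UMIs. The shares overlapped between regions, with p = 0.6 by the exact permutation test.

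Cnp codes for a phosphodiesterase that keeps the cytoplasmic channels of the sheath open. It lies on the plus strand of chromosome 11, 100574909 to 100591875, and shares 4.56% of its exon bases with the neighbouring gene Dnajc7. It gave 6 UMIs, with 2, 1 and 0 in the DG and 1, 0 and 2 in CA1, and neither region was the higher in every section (exact permutation p = 0.9).

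Mog codes for a glycoprotein on the outermost surface of the sheath and lies on the minus strand of chromosome 17, 37010740 to 37023398. It was seen as 1 UMI in the DG of section 1 and 1 UMI in CA1 of section 3, and 4 of the 6 libraries were at 0 (exact permutation p = 1).

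Mal codes for a raft-associated membrane protein of myelin and of sorting vesicles and lies on the minus strand of chromosome 2, 127633226 to 127656695. It held 2, 1 and 1 UMIs in the DG of sections 1 to 3 and 0 in each CA1 library. The exact permutation p was 0.1, the smallest possible, and with signs flipped within sections it was 0.25, also the smallest possible. The 4 UMIs are 0.0139% of the pooled DG UMIs, which is less than the 0.0176% that a count of 0 allows in the pooled CA1 libraries, so no fold is given. The DG libraries hold 62.8% of all UMIs, and of the 616 genes of the table that had 4 UMIs in all, 139 had none in CA1 (22.6%).

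Mal was thus the 1 of 5 myelin genes whose DG shares were all above its CA1 shares, a pattern that 228 of the 7507 genes had (3.04%). For 0 of the 5 were all CA1 shares above all DG shares, against 105 of the 7507 genes (1.40%). Either pattern needs a UMI in each of 3 libraries, and 3773 of the 7507 genes had more than 2 UMIs in all, so these percentages include genes that could not show it. Without the filter on low counts, edgeR gave Mal an unadjusted p of 0.106, and its adjusted p above did not pass the test.

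**Figure D2:**
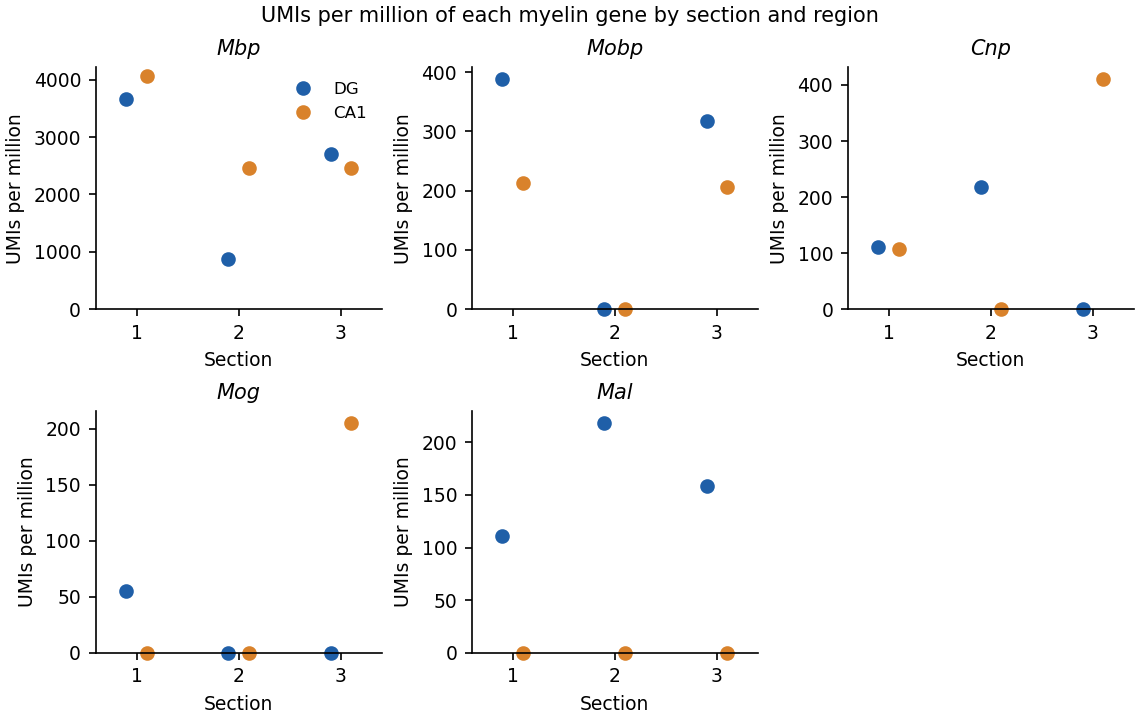
Level, in UMIs per 1000000 library UMIs, of the 5 myelin genes, by section on the x axis and with the DG in blue and CA1 in orange; each panel has its own y axis from 0. Mbp was read in all 6 libraries and lowest in the DG of section 2, and Mal was read in the 3 DG libraries and in no CA1 library.

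The genes stood far apart in level. As UMIs per 1000000 library UMIs, Mbp had a mean of 2705 ± 1116 (SD, n = 6 libraries), Mobp 188 ± 161, Cnp 141 ± 155, Mal 81.4 ± 95.5 and Mog 43.5 ± 82.4. Since a UMI stands for a cDNA molecule, its count need not grow with the length of the gene, so levels are given with and without division by the kilobases of annotated exon. Per kilobase, Mbp had 388 ± 160 (SD, n = 6 libraries, range 125 to 582), Cnp 41.9 ± 46.1, Mal 29.3 ± 34.4, Mobp 28.9 ± 24.7 and Mog 19.5 ± 36.9. Mbp led on both scales, and its lowest library lay above the highest value of the other genes, which was 411 without and 122 with division by length, both for Cnp. Mobp came second without division by length and 4th with it. The ranges of the 4 lower genes all began at 0 and overlapped on both scales, so their order among themselves does not exceed the spread.

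Of 37 other myelin genes, 20 were read, with 76 UMIs in the DG and 60 in CA1. Their summed share was 0.300, 0.241 and 0.175% for the DG of sections 1 to 3 and 0.460, 0.176 and 0.247% for CA1, lower on the DG side in 2 of 3 sections. The log2 ratio of DG over CA1 was -0.62 in section 1, where its interval for counting error, -1.22 to -0.0025, lay just below 0, then 0.45 in section 2 (-1.19 to 2.33) and -0.50 in section 3 (-1.82 to 0.81). Bcas1, a gene of newly myelinating oligodendrocytes, was counted 9, 0 and 2 times in DG libraries and 9, 1 and 3 times in CA1. Qdpr, which codes for a pteridine reductase abundant in oligodendrocytes, held 8, 0 and 1 in the DG and 10, 0 and 1 in CA1. Like Mobp, Qdpr was at 0 in both libraries of section 2. 0 of the 20 genes entered the edgeR test.

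The remaining oligodendrocyte lists were thinly covered. Of 16 genes of myelin lipid synthesis 11 were read with 41 UMIs, of 12 transcription factors of the lineage 6 with 16 UMIs, 13 of them in the DG, and of 13 genes of oligodendrocyte precursors 4 with 22 UMIs, 16 of them in the DG. No gene of these 3 lists reached 20 UMIs and 0 entered the edgeR test. The DG libraries hold 62.8% of all UMIs, and the shares of each list overlapped between the regions. The transcription factors held 7 UMIs in the DG of section 3 and 0 in CA1, where the interval of the log2 ratio for counting error began at 0.15. In section 2 they ran the other way, with 1 UMI in the DG and 2 in CA1.

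Genes whose products carry, hold or process Mbp mRNA were all read, 8 of 8, with 75 UMIs in the DG and 41 in CA1. Kif1b, a kinesin that moves Mbp mRNA along microtubules and also works in neurons, had 28, 11 and 7 UMIs on the DG side and 12, 4 and 11 on the CA1 side. Qk, the RNA-binding protein Quaking, held 14, 2 and 3 in the DG and 2, 2 and 1 in CA1. The shares of the list were 0.262% ± 0.0689 in the DG and 0.244% ± 0.0554 in CA1 (SD, n = 3 each), and 0 of the 8 genes entered the edgeR test.

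Other cell types were read beside the myelin genes, and their part in the comparison was not tested. Astrocyte markers, 10 of 12 read, took 0.336% ± 0.0823 of the DG and 0.319% ± 0.0842 of the CA1 UMIs (SD, n = 3 each), led by Slc1a2, a glutamate transporter with 70 UMIs, and Cst3, the secreted protease inhibitor cystatin C, with 20. In both regions their share was highest in section 3, whereas the myelin sum was highest in section 1. General neuronal genes, 12 of 12 read, held 1145 UMIs, led by Meg3 with 725 and Camk2a with 169. Their summed share, most of it Meg3, was 1.86 to 2.89% in the DG and 2.69 to 4.08% in the CA1 libraries. It was lower in the DG in 3 of 3 sections. Markers of microglia, endothelial cells and inhibitory neurons held 4, 13 and 23 UMIs in all. The gene with most UMIs among the DG granule markers was Ahcyl2 with 14.

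**Figure D3:**
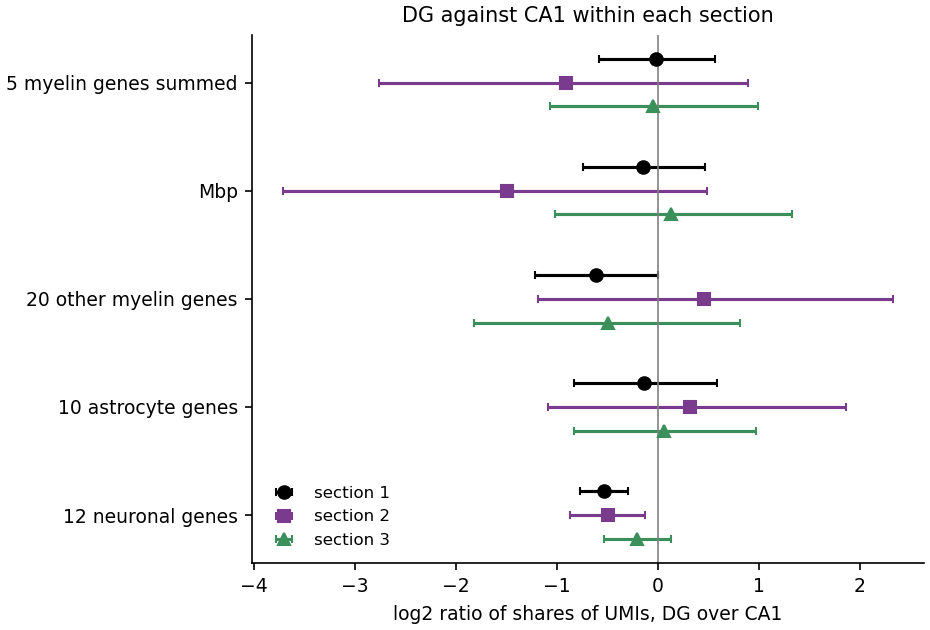
Log2 ratio of shares of UMIs, DG over CA1, in each of 3 sections for the 5 myelin genes summed, Mbp, 20 other myelin genes, 10 astrocyte genes and 12 neuronal genes; bars are 95% intervals for counting error and the grey line marks equal shares. The 3 intervals of the myelin sum and of Mbp all cross 0, and those of section 2 are the widest; the intervals of the other myelin genes in section 1 and of the neuronal genes in sections 1 and 2 lie below 0.

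Genes outside the set with at least 60 UMIs were ranked by how closely their share followed the myelin sum over the 6 libraries. Bcas1, which held most UMIs of the 20 other myelin genes above, had 24, so none of these 20 could enter the ranking. The 5 highest genes follow. Among 61 genes with at least 60 UMIs, Pearson's r with the sum was 0.95 for Pabpn1, a poly(A)-binding protein of the nucleus, 0.83 for Ppp3ca, a calcineurin subunit, 0.75 for Cox6a1, a subunit of cytochrome c oxidase, 0.70 for Kif5a, a neuronal kinesin, and 0.69 for Fth1, the ferritin heavy chain that stores iron. With each section left out in turn, the lowest r was 0.77 for Pabpn1 and 0.52 for Ppp3ca, both without section 2, 0.51 for Cox6a1 and 0.34 for Kif5a, both without section 1, and 0.65 for Fth1, without section 2. These are descriptions over 6 points that share sections and denominators, the sum itself had an r of 0.71 with the library total, and the median r of the 61 genes was -0.16.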

How the data were processed

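UMI counts per gene were deposited by the authors for the DG and CA1 of 3 sections. The submitters' notes name cutadapt 4.1, STAR 2.7.9a, UMI-tools and featureCounts of Subread 2.0.3. Reads were mapped to mm10, assigned to genes with default options (without strand) and collapsed by UMI. The deposited counts hold 1 added to every gene, a step not described in the sources used here, and 1 was subtracted. The authors' columns of CPM, regional averages, fold changes and log ratios were not used, nor were the ATAC libraries. The row of totals was left out, and 0 columns of values lacked a sample.

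Shares of library UMIs (2844 to 17999 per library) were computed per library, with exact binomial 95% intervals. All genes were fitted with edgeR 4.0.16 (R 4.3.3; TMM scaling, filterByExpr with its minimum count of 10, quasi-likelihood test without block, Benjamini-Hochberg adjustment), a script tested on simulated data. Single genes were compared with two-sided exact permutation tests in scipy 1.17.1. Alternatives were DESeq2 1.42.0 and its size factors, plain totals, other filters and denominators, the counts as deposited, and each section or library left out. Both libraries of a number come from the same section, so the numbers pair them, although their deviations from the regional means correlated by only 0.072, 0.016 and 0.062 in sections 1 to 3. Coordinates and exon lengths come from RefSeq on GRCm38.p6, where 7188 of 7507 symbols matched.

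Named genes were the set itself, genes of the oligodendrocyte lists with at least 20 UMIs, the 2 leading genes of each other list where they held at least 10 UMIs, and the 5 genes most like the sum. The set and the lists were chosen with earlier results of these data known. Some listed genes, and an alternative and a comparison that need them, are not reported here, and the lists are counted without them.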

Additional observations from a re-analysis of the deposited data

How the results depend on the processing

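The counts limit every comparison: 4 of the 5 genes had 12 UMIs or fewer, and 3 libraries a region cannot reach an exact permutation p under 0.1. The mean log2 ratio of the summed share, -0.32, kept its sign in all alternatives but 3. In these 3 it was taken as a ratio of mean shares, which was -0.20 with all libraries. That ratio was 0.47 without Mbp, 0.15 without the DG library of section 2 and 0.032 without the CA1 library of section 1. Without Mbp, CA1 of section 2 held 0 UMIs of the set, so no mean of section ratios could be formed. With single libraries left out the ratio of mean shares ran from -0.59 to 0.15. The mean log2 ratio ran from -0.48 to -0.033 with sections left out, and on the counts as deposited it was -8.25e-05. Under 16 of 17 alternatives, DESeq2 and each left-out section or library included, 0 genes were called. With the replicate block and no filter edgeR called 1, Prkce (adjusted p 0.0202), which is no myelin gene and was named after its values were seen. With the replicate block alone, which pairs the sections, edgeR called 0 genes, 5 had an unadjusted p under 0.05, and Mbp had a log2 fold change of -0.073 with an adjusted p of 0.938. Over all alternatives the adjusted p of Mbp ran from 0.672 to 0.999 and its log2 fold change from -0.73 to 0.41, with a positive sign without the DG library of section 2 (0.13), without the CA1 library of section 1 (0.41) and with the replicate block and no filter (0.014). Scaling to plain totals moved the median of the tested genes from -0.022 to -0.14. As a difference in mean share, DG minus CA1, Mbp turned from -0.058 to 0.0187 percentage points without the DG library of section 2 and to 0.00695 on the counts as deposited. Cnp turned from -0.0063 to 0.0111 without section 3 and 0.00565 without its CA1 library, and Mog from -0.0050 to 0.00278 and 0.00185 in the same settings. With sections or libraries left out, these differences ran from -0.121 to 0.0187 for Mbp, from -0.0203 to 0.0111 for Cnp and from -0.0103 to 0.00278 for Mog. Mobp and Mal kept their direction in each of their alternatives. For Mal, with 0 UMIs in each CA1 library and some in each DG library, leaving out sections or libraries could not turn it. The cause of these changes was not tested.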
